A study of Homo sapiens with 54 samples.

Results

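The genes described here are 50 G2/M and mitosis genes, chosen as a list of symbols and found once each in the deposited table of 59368 genes. They encode the cyclins, kinases, kinetochore proteins, kinesins, spindle proteins and cytokinesis factors that carry a cell from the end of S phase through division. RNA was sequenced from 3 human cell lines of colorectal cancer (HT-29, DLD-1 and HCT-116), each as the parental line sensitive to 5-fluorouracil (5-FU) and as a line grown for months in rising 5-FU until it was resistant. The resistant lines were then maintained in 50 µM 5-FU. The study's methods do not say when that drug was removed before the treatments. Every line and state was given uracil or 5-FU at 10 µM for 24 h, and a further set had the same 5-FU followed by X-rays at the dose lethal to 50% of that line. That dose differed between the lines. The design had 18 conditions with 3 replicates each, 54 libraries in all, and the labels do not say how long after irradiation the cells were taken. Uracil was the control for 5-FU, and 5-FU alone was the control for irradiation, so no library was irradiated without the drug. All cells were grown for 72 h before treatment, and the labels name 1 resistant population per line.

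As background, most of these genes are silent or low in G1 and are switched on together late in the cell cycle. The DREAM complex holds them down in resting cells, and B-MYB with the MuvB core and FOXM1 activate them from late S phase into mitosis. Cyclin B1 with CDK1 drives entry into mitosis, PLK1 and the Aurora kinases build the spindle, and the anaphase-promoting complex with CDC20 then destroys cyclin B1 and securin (PTTG1) to let chromosomes separate. 5-FU blocks thymidylate synthase and is built into RNA and DNA, and X-rays break DNA, and both can hold cells before mitosis. In bulk RNA, fewer cells in G2 and M and less RNA per cell cannot be told apart.

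The promoters of these genes are known for a pair of short elements, the cell cycle homology region (CHR, searched as TTTGAA or TTCGAA) that MuvB binds, and CCAAT boxes that NF-Y binds. Promoter sequences of 44 members were taken from RefSeq (GRCh38.p14), 52 in all because 6 members have several listed starts. FAM83D, UBE2C, BIRC5, TTK, AURKA and TPX2 had no entry. Within the 250 bases before and 50 after the start, and counting both strands, 69.2% of the member promoters held a CHR, against 16.4% of 35116 promoters of all genes. CCAAT was in 78.8% against 34.6%, and both elements in 59.6% against 6.38%. At least 2 CCAAT matches were in 46.2% against 10.8%, whereas either E2F motif (TTTCCCGC or TTTGGCGC) was in 3.85% against 2.27%. A match of these letters is a description and not a bound site. The promoters of CCNB1, CCNB2, CDK1 and PLK1, the core of the mitotic entry machinery, are printed first, followed by those of 4 members whose RNA went against most of the list in some comparison, CDC25C, HMMR, PSRC1 and NDC80. Each runs from 250 bases before to 20 bases after the listed start, 5′ to 3′ in the direction of the gene, with CHR and CCAAT matches on either strand in capitals.
CCNB1 (chr5:69166900-69167169, plus strand): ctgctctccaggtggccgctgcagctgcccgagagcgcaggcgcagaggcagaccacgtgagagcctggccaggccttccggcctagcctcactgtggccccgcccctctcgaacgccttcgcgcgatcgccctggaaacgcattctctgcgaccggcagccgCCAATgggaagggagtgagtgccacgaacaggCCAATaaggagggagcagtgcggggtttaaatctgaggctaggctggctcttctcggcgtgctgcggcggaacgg
CCNB2 (chr15:59104896-59105165, plus strand): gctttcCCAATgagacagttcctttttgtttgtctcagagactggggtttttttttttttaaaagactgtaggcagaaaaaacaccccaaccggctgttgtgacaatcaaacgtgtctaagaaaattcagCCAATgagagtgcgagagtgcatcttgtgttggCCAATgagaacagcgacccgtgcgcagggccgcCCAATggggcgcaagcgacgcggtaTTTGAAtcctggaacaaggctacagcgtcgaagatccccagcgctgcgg
CDK1 (chr10:60778228-60778497, plus strand): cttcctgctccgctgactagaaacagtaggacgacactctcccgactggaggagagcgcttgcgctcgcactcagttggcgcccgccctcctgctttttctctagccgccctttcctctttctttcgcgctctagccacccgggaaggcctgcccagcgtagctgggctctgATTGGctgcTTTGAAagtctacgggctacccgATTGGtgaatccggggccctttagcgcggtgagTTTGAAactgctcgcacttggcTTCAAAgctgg
PLK1 (chr16:23678639-23678908, plus strand): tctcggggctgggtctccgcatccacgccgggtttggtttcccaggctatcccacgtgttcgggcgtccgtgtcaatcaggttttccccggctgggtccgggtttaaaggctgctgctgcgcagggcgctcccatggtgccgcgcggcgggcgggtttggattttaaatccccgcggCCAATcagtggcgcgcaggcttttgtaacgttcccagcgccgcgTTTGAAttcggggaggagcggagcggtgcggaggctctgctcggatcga
CDC25C (chr5:138331785-138332054, minus strand): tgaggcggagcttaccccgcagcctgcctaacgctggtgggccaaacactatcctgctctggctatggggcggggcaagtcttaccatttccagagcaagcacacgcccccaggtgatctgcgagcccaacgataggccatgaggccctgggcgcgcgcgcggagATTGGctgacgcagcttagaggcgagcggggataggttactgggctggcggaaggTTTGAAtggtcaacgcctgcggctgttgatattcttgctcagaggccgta
HMMR (chr5:163460382-163460651, plus strand): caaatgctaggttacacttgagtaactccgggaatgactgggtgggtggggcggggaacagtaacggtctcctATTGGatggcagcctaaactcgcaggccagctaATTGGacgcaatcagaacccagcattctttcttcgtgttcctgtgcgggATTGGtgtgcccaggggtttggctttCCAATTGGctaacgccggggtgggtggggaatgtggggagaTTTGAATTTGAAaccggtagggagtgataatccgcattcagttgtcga
PSRC1 (chr1:109283126-109283395, minus strand): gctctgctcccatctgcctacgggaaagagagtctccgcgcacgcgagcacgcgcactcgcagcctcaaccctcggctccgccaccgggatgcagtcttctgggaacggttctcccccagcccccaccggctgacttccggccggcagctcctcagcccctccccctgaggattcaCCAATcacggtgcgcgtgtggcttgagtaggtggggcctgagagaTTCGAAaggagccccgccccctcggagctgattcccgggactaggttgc
NDC80 (chr18:2571307-2571576, plus strand): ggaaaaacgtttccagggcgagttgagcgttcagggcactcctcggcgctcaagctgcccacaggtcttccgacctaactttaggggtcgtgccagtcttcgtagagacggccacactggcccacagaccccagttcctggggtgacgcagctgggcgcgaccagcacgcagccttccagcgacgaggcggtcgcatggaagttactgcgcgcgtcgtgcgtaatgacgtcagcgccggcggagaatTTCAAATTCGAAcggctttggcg
CCNB2, PLK1 and the start of CDC25C shown here each had a CHR starting 29 or 30 bases before the start, and PSRC1 had its TTCGAA form at 29 bases. CDC25C has 4 listed starts, of which another had its CHR 43 bases after the start and the other 2 held neither CHR nor CCAAT. HMMR had adjacent CHR matches at 28 and 22 bases, and NDC80 had a TTTGAA match on the other strand and a TTCGAA beside the start itself but no CCAAT. CCNB1 had neither TTTGAA nor TTCGAA in its window and held CCAAT at 87 and 55 bases before the start. Other forms of the CHR were not searched, so its promoter cannot be said to lack one. The start of CDK1 shown here had 3 CHR matches and 2 CCAAT, and its other listed start had 1 of each. PSRC1 and HMMR, whose RNA fell with 5-FU in sensitive DLD-1 where 29 other members rose, both held CHR and CCAAT matches. PLK1, CCNB2 and the starts shown of CDK1 and CDC25C held both too, and none of these genes was called there. CCNB1 and NDC80 rose there, and CCNB1 had no CHR match and NDC80 no CCAAT. Any link between these matches and the direction was not tested.

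Library totals were 38957142 to 86673615 estimated counts in 53 libraries, with a median of 51373543 over all 54. The exception was sensitive DLD-1 under uracil, replicate 2, at 218518344. Mitochondrial genes took 2.03% to 6.84% of the counts, and their share is given with several comparisons in which it moved. No library pair within a condition differed by as little as sampling noise (the lowest chi-square per degree of freedom was 2.24), so all 54 were counted separately. The 8 epithelial markers were each at 1 TPM (a level corrected for transcript length and scaled to a fixed library total) or more in some condition, and their summed level was 2352.4 to 14390.6 TPM. Of 5 fibroblast, 4 immune and 3 endothelial markers, 1 each reached that level, with sums of 0.603 to 31.4, 0.524 to 23.6 and 0.162 to 5.43 TPM. The libraries labelled resistant HT-29 went against their label. Of 64 genes that reached 10 TPM in sensitive HCT-116 but stayed within 0.1 TPM in sensitive DLD-1 and HT-29, 62 (96.9%) were at 1 TPM or more in them, as many as in resistant HCT-116, whereas none of the 12 genes that marked HT-29 in the same way reached 1 TPM. Resistant DLD-1 kept 19 of the 20 DLD-1 markers (95.0%). These libraries are called labelled resistant HT-29 throughout, and any comparison of them with sensitive HT-29 sets cells with different line markers side by side, so line and resistance cannot be told apart in it.

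All 50 members passed the filter on low counts in each fit, and the lowest estimated count of any member in any library was 13, for CDC25C in labelled resistant HT-29 under uracil. Under uracil the members summed to a mean of 4145 TPM ± 48 (SD, n = 3) in sensitive DLD-1, 4009 ± 35 in sensitive HCT-116 and 4170 ± 41 in sensitive HT-29, or 0.414%, 0.401% and 0.417% of all transcripts. CCNB1 had the highest mean level of the members in 14 of the 18 conditions, and UBE2C, the ubiquitin-conjugating enzyme of the anaphase-promoting complex, in the other 4. The sums ranged from 819 TPM ± 37 in sensitive HCT-116 under 5-FU with irradiation to 5465 ± 59 in sensitive DLD-1 under the same treatment. Across the means of all 18 conditions the median Pearson correlation between members' log2 levels was 0.89, as a description over conditions that share their scaling. Without the treated conditions of sensitive HCT-116 it was 0.326. KIF2C, a microtubule-depolymerising kinesin, was most like the rest, with a median of 0.944 over all 18 conditions and 0.572 without treated sensitive HCT-116, and CDC25C, the phosphatase that activates CDK1, was least like it (0.189 and -0.172).

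In sensitive HCT-116, 5-FU lowered every member at least 2-fold. Cyclin B1 (CCNB1) was at 307.0, 308.1 and 321.2 TPM under uracil and at 76.5, 80.3 and 86.0 TPM under 5-FU. Its kinase CDK1 was at 161.3, 162.0 and 161.1 TPM against 55.2, 57.8 and 54.9 TPM, and PLK1 was at 122.7, 118.4 and 125.1 TPM against 29.6, 31.2 and 30.5 TPM. In none of the 3 genes did the groups overlap, and of all 16475 genes at a mean of 1 TPM or more 37.3% lay wholly below and 27.6% wholly above their uracil group. The edgeR log2 fold changes were -2.0 ± 0.0571 (SE) for CCNB1, -1.56 ± 0.0648 for CDK1 and -2.05 ± 0.0579 for PLK1, with adjusted p of 1.2e-17, 7.44e-15 and 1.05e-17. Of the 50 members, 50 fell at an adjusted p of at most 0.01 and at least 2-fold, against 3.36% of the 22975 genes tested, and the median change was -1.78 beside 0.03 for all genes tested. At the adjusted p alone the lower genes were 24.4% of all. The mitochondrial share of the counts also moved in sensitive HCT-116, from 2.99%, 4.0% and 3.06% under uracil to 6.36%, 6.38% and 6.25% under 5-FU and 5.59%, 6.84% and 6.0% with irradiation, and its part in the result was not tested.

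The loss in sensitive HCT-116 was deepest in HMMR, CDC25C and CCNB2. HMMR, a microtubule-binding protein of the spindle, went from 66.2, 70.0 and 70.0 TPM to 9.69, 11.7 and 13.3 TPM (6.20-fold lower, log2 -2.63 ± 0.0628). CDC25C went from 17.8, 17.5 and 16.5 TPM to 3.01, 2.70 and 2.94 TPM (5.57-fold lower). CCNB2, the second B-type cyclin, went from 108.6, 104.6 and 106.7 TPM to 21.0, 21.9 and 20.4 TPM (5.04-fold lower). The shallowest changes were in CKAP2, INCENP and TACC3, and none of these groups overlapped either. CKAP2, a spindle-associated protein, was at 73.0, 74.3 and 76.3 TPM and then at 34.7, 35.5 and 35.8 TPM (2.07-fold lower). INCENP, the scaffold of the chromosomal passenger complex, was at 40.6, 40.7 and 43.7 TPM and then at 20, 19.6 and 18.7 TPM (2.27-fold lower). TACC3, which stabilises kinetochore fibres, was at 91.6, 92.8 and 92.4 TPM and then at 43.0, 41.8 and 43.9 TPM (2.32-fold lower).

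By role, the medians of the log2 change in sensitive HCT-116 lay close together. They were -2.0 for the 5 cyclins and partners of CDK1, -1.95 for the 6 mitotic kinases, -1.90 for the 6 kinesins, -1.82 for the 4 partners and substrates of the anaphase-promoting complex and -1.80 for the 8 kinetochore and centromere genes. The 12 spindle and microtubule genes had -1.70, the 3 genes of chromosomes and helicases -1.68, the 4 of the passenger complex -1.65 and the 2 cytokinesis genes -1.63. Within the kinetochore group the change ran from -2.27 in NUF2 to -1.39 in NDC80, partners in the complex that holds microtubules. Genes around the programme moved with it. Of 28 other mitotic genes not among the members, 28 fell and 26 of them at least 2-fold, from HMGB2 (-2.28) to MIS12 (-0.33). All 14 condensin and cohesin genes fell, 11 at least 2-fold, led by the separase gene ESPL1 (-1.89 ± 0.0464). Of 30 replication and G1/S genes, 28 fell and 23 of them at least 2-fold, with a median of -1.25, and only cyclin D1 (CCND1) rose, by 1.14 ± 0.0501. Among 23 regulators, FOXM1 fell by 1.83 ± 0.0532 and the B-MYB gene MYBL2 by 1.65 ± 0.0523. Of 16 G2 checkpoint genes tested, 6 fell and 7 rose, among them the CDK inhibitor CDKN1A (1.60 ± 0.0610) and the p53 ligase MDM2 (1.30 ± 0.0476). A list of subunits, inhibitors and other partners of the anaphase-promoting complex changed less as a whole: 13 of 21 fell, with a median of -0.35. The 2 that fell at least 2-fold were MAD2L1 (-1.54) and UBE2S (-1.47).

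**Figure D1:**
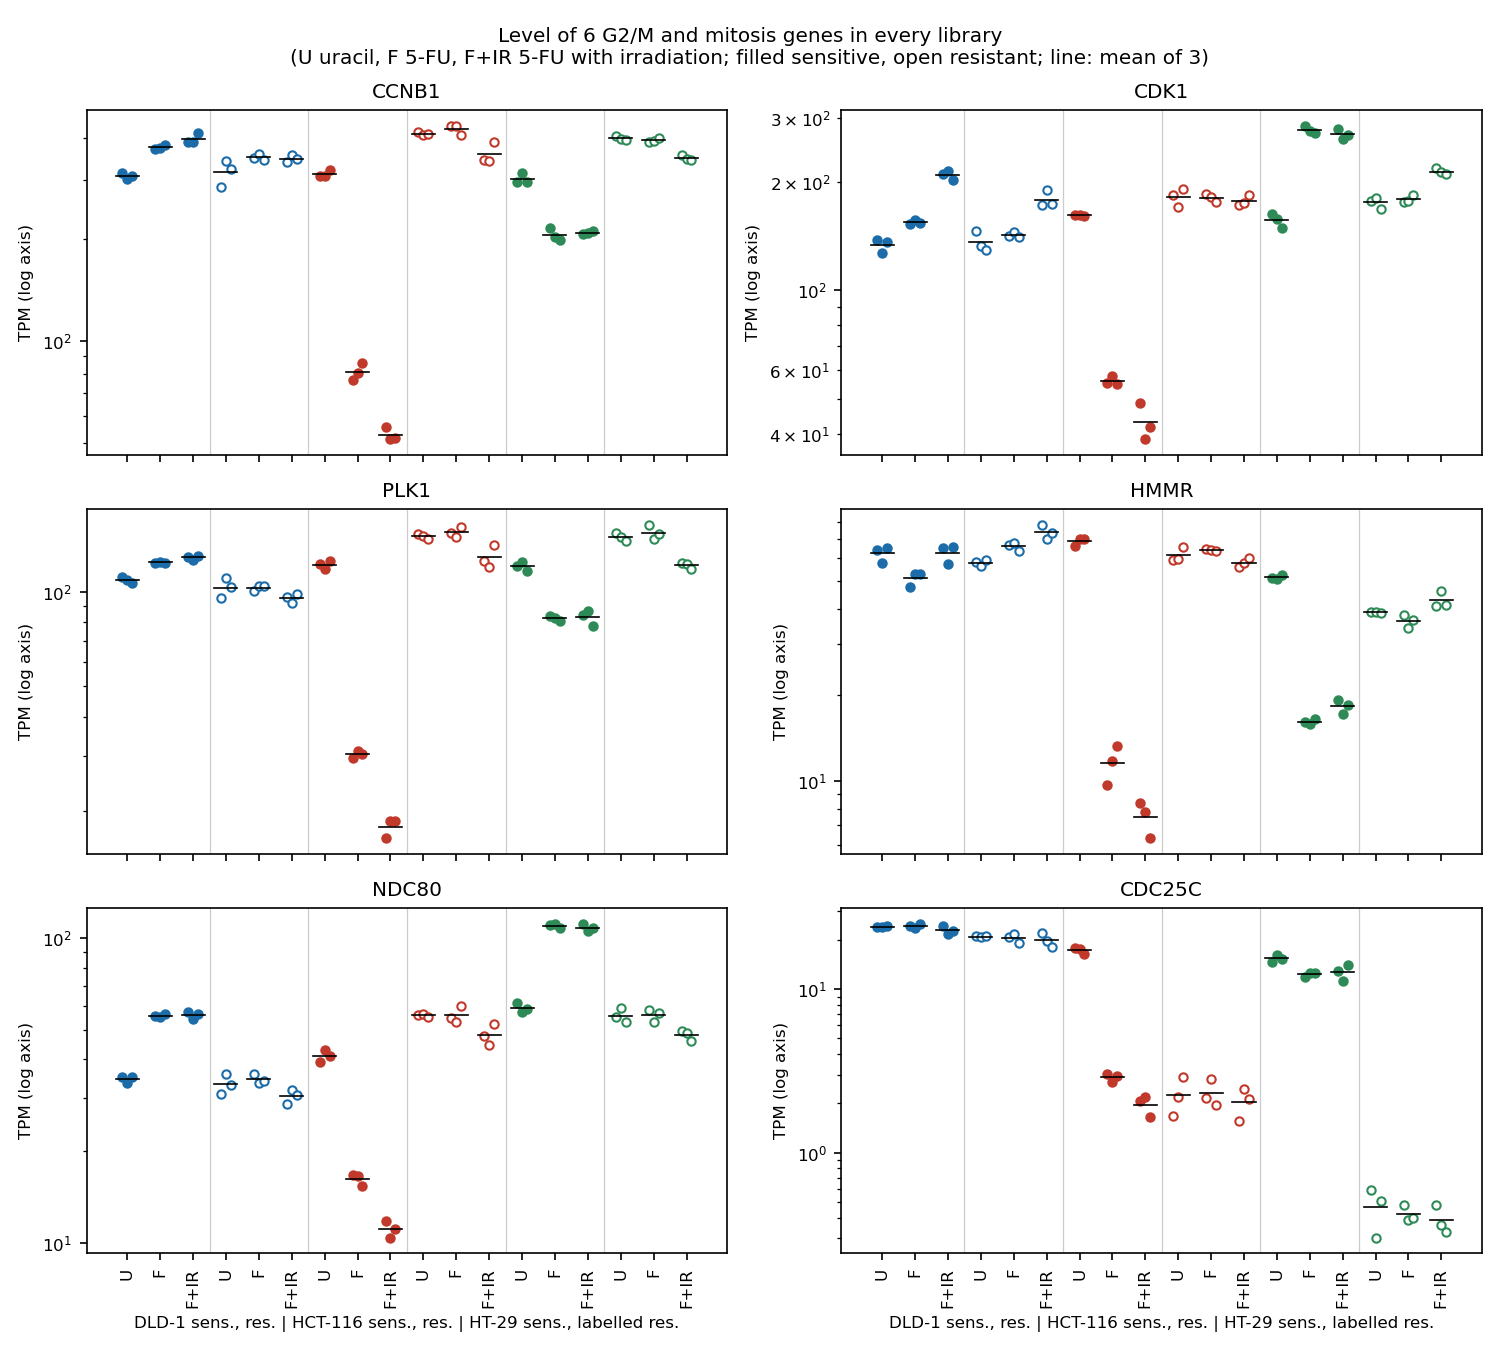
TPM on a log axis for 6 members in each of the 54 libraries, with conditions along the x axis (U uracil, F 5-FU, F+IR 5-FU with irradiation), filled points for sensitive and open points for resistant cells, and a line at the mean of 3 replicates. CCNB1, CDK1, PLK1, HMMR and NDC80 are lowest in treated sensitive HCT-116, HMMR and NDC80 go opposite ways in sensitive HT-29, and CDC25C is at 0.302 to 0.590 TPM in all labelled resistant HT-29 libraries.

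Sensitive DLD-1 did not lose these genes under 5-FU. At the adjusted p alone, 29 members rose and 2 fell, against 14.4% and 20.3% of the 21814 genes tested, and none changed by 2-fold (4.02% of all genes did, in either direction). DESeq2 also called no member at 2-fold, and 39 members had an unadjusted p under 0.05 in edgeR. The median change was 0.19 beside 0.01 for all genes. The largest rises were in PIF1, CENPA and NDC80. PIF1, a DNA helicase, was at 17.0, 19.1 and 16.8 TPM under uracil and at 36.2, 36.8 and 32.5 TPM under 5-FU (log2 0.81 ± 0.0851). CENPA, the histone variant that marks centromeres, was at 36.6, 35.6 and 34.8 TPM and then at 57.5, 59.4 and 59.1 TPM (0.63 ± 0.0475). NDC80 was at 35.1, 33.6 and 35.1 TPM and then at 55.6, 55.3 and 56.3 TPM (0.61 ± 0.0557). The groups did not overlap in these 3 genes, beside 36.7% of all genes wholly above and 23.9% wholly below.

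The 2 members that fell in sensitive DLD-1 were PSRC1 and HMMR, both microtubule-associated. PSRC1 was at 40.7, 42.4 and 42.0 TPM and then at 32.7, 30.6 and 31.6 TPM (log2 -0.50 ± 0.05), and HMMR was at 64.0, 57.7 and 65.3 TPM and then at 47.7, 52.8 and 53 TPM (-0.38 ± 0.0547). SPC25, a kinetochore protein, had the next lowest estimate, -0.12 ± 0.0600 (adjusted p = 0.106), with 46.7, 45.1 and 43.0 TPM against 44.7, 47.7 and 42.9 TPM, and its groups overlapped. CCNB1 was at 313.4, 301.2 and 307.3 TPM and then at 369.6, 372.7 and 378.9 TPM, a rise of 0.20 ± 0.0563 (adjusted p = 0.00725) that missed the threshold when replicate 2 or replicate 3 was left out (0.18 each time). CDK1 was at 137.8, 126.8 and 136.0 TPM and then at 153.0, 156.7 and 153.3 TPM (0.09 ± 0.0496, adjusted p = 0.16), and PLK1 at 111.4, 108.9 and 106.4 TPM and then at 124.0, 124.8 and 123.8 TPM (0.06 ± 0.0551, adjusted p = 0.364). For CDK1 and PLK1 the TPM groups did not overlap, as in most genes here, and the test did not call them. TPM scales each library to its own total, whereas the fit scaled libraries by trimmed means (TMM). Scaling by library size alone moved the median of all genes tested under 5-FU from 0.01 to 0.12 in sensitive DLD-1, from 0.03 to 0.11 in sensitive HCT-116 and from 0.03 to 0.19 in sensitive HT-29. It raised the higher members in sensitive DLD-1 from 29 to 40. Of the 28 other mitotic genes, 18 rose and 3 fell, whereas 15 of the 30 replication genes fell and 1 rose, with PCNA, the sliding clamp of replication, at -0.65 ± 0.0381. FOXM1 had an estimate of 0.17 ± 0.0557 (adjusted p = 0.0151) and MYBL2 fell by 0.22 ± 0.0529.

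Sensitive HT-29 split the list under 5-FU. At the adjusted p alone 25 members fell and 11 rose, against 24.9% and 22.1% of the 23756 genes tested, so the share of rising members was that of all genes. With library size scaling the counts were 23 and 23, with no called member changing sign. By the 2-fold rule 4 fell and none rose (3.3% of all genes fell so far), and 1 with library size scaling. HMMR was at 51.3, 50.6 and 52.5 TPM under uracil and at 16.1, 15.8 and 16.4 TPM under 5-FU (3.77-fold lower, log2 -1.92 ± 0.0468). PIF1 was at 27.0, 26.3 and 39.5 TPM and then at 17.9, 16.3 and 16.1 TPM (2.22-fold lower), the opposite direction to its change in sensitive DLD-1. AURKA, the centrosomal Aurora kinase, was at 122.8, 119.2 and 115.8 TPM and then at 70.4, 67.8 and 67.6 TPM (2.07-fold lower), and CDC20 was at 173.8, 178.8 and 166.9 TPM and then at 105.8, 103.9 and 104.7 TPM (log2 -1.01). The groups did not overlap in these 4 genes. In TPM 17 members lay wholly below their uracil group and 25 wholly above, beside 22.3% of all genes wholly below and 46.6% wholly above. The members summed to 4170 TPM ± 41 under uracil and to 4483 ± 46 under 5-FU, so the balance of falls and rises depended on the scaling.

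Cyclin B1 and its kinase moved apart in sensitive HT-29. CCNB1 fell from 295.1, 315.0 and 295.2 TPM to 215.2, 202.9 and 199.2 TPM (log2 -0.78 ± 0.0421, adjusted p = 2.02e-14), while CDK1 rose from 162.7, 157.7 and 148.5 TPM to 285.5, 276.1 and 272.2 TPM (0.57 ± 0.0510, adjusted p = 4.05e-10). PLK1 fell from 121.0, 124.8 and 116.8 TPM to 83.6, 82.3 and 80.9 TPM (-0.92 ± 0.0436). The largest rise was in NDC80, from 61.5, 57.2 and 58.7 TPM to 110.7, 111.4 and 108.2 TPM (0.71 ± 0.0434). NUSAP1, a spindle protein, went from 138.5, 140.8 and 143.3 TPM to 219.4, 233.4 and 244.5 TPM (0.42 ± 0.0446). The split ran through the roles. Of the cyclins and their partners, 4 fell and only CDK1 rose, 3 of the 4 partners and substrates of the anaphase-promoting complex fell, and 6 of the 12 spindle genes fell while 2 rose. In the kinetochore group 4 fell, CENPE most (-0.71), and 2 rose, and in the kinesins KIF20A (-0.89) and KIF14 fell while KIF4A and KIF23 rose. Outside the list, 17 of the 30 replication genes rose and 7 fell, with cyclin E2 (CCNE2) at 1.5 ± 0.0581. FOXM1 rose by 0.33 ± 0.0360, MYBL2 by 0.81 ± 0.0433 and CDKN1A by 3.91 ± 0.0707.

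**Figure D2:**
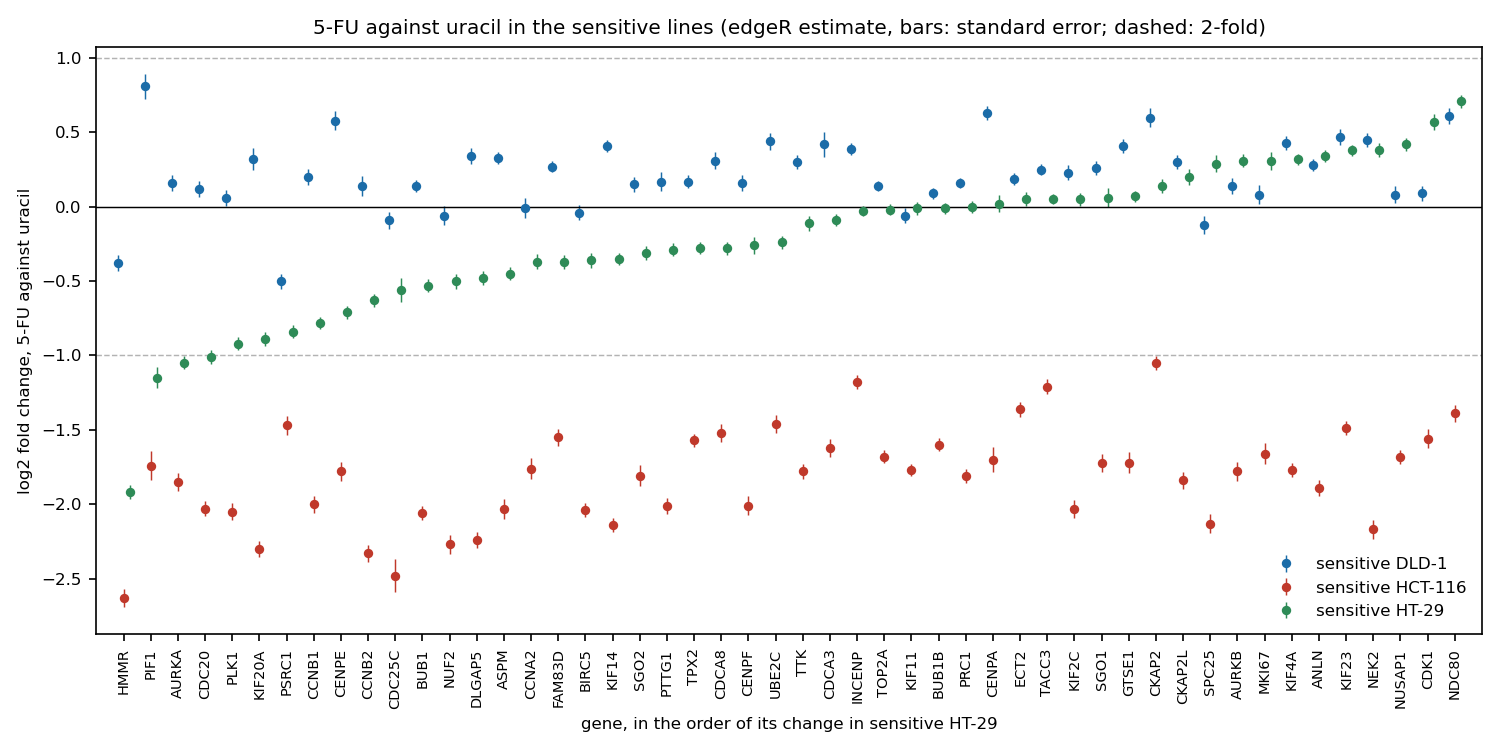
Log2 fold change of 5-FU against uracil for each of the 50 members (x axis, ordered by sensitive HT-29) in the sensitive lines, as edgeR estimates with bars for the standard error and dashed lines at 2-fold. All points of HCT-116 lie between -2.63 and -1.05, those of DLD-1 between -0.50 and 0.81, and those of HT-29 run from -1.92 in HMMR to 0.71 in NDC80.

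The 5-FU responses of the sensitive lines differed from each other when the difference itself was tested in a fit of all 54 libraries. All 50 members had a lower response in HCT-116 than in DLD-1 (13.3% of 26043 genes did) and all 50 a lower response than in HT-29 (19.9% of all genes). NEK2, a centrosomal kinase, differed most in both, by a log2 of -2.61 ± 0.0811 from DLD-1 and of -2.60 ± 0.0822 from HT-29. Its levels in HCT-116 were 45.4, 44.6 and 48.1 TPM and then 10.8, 11.1 and 9.86 TPM, against 52.5, 53.3 and 53.4 TPM and then 77.9, 81.3 and 76.9 TPM in DLD-1. HT-29 and DLD-1 differed in 33 members (27.2% of all genes), 30 of them lower in HT-29 and 3 higher. PIF1 differed most between them (-1.89 ± 0.123), then HMMR (-1.47 ± 0.0798), the kinetochore motor CENPE (-1.23 ± 0.0793), AURKA (-1.15 ± 0.0781), KIF20A (-1.15 ± 0.0902) and CDC20 (-1.06 ± 0.0762). CDK1 differed in the other direction (0.54 ± 0.0860).

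Resistant cells barely changed these genes under 5-FU. Resistant HCT-116 had no member called by edgeR or DESeq2 at either rule, with 3 members at an unadjusted p under 0.05, and no gene of all 22975 was called (0.0% by the adjusted p and 0.0% at 2-fold). CCNB1 was at 415.5, 406.9 and 410.2 TPM under uracil and at 432.7, 431.4 and 407.3 TPM under 5-FU (log2 0.02 ± 0.0541). CDK1 was at 183.6, 170.7 and 190.8 TPM and then at 185.2, 181.1 and 176.2 TPM (-0.04 ± 0.0621), and PLK1 at 152.3, 151.0 and 147.3 TPM and then at 153.7, 149.4 and 160.6 TPM (0.02 ± 0.0545). Their groups overlapped. Labelled resistant HT-29 also had no member called by either tool at either rule and none at an unadjusted p under 0.05, beside 0.0421% of all genes at the adjusted p and 0.00421% at 2-fold. There the estimates ran from -0.08 in HMMR to 0.06 in CENPE, and CCNB1 was at 403.6, 395.5 and 394.5 TPM and then at 388.6, 390.8 and 399.5 TPM.

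In resistant DLD-1 only ASPM, a spindle pole protein, was called under 5-FU. It rose from 21.6, 20 and 19.1 TPM to 23.0, 21.6 and 22.9 TPM (0.24 ± 0.0417, adjusted p = 0.00673), groups that overlapped, and the call was lost when any replicate number was left out. The higher genes were 0.133% of all, none of the members changed by 2-fold in edgeR or DESeq2 (0.0138% of all genes did), and 24 members had an unadjusted p under 0.05. DESeq2 called 5 members at the adjusted p. The median over the members was 0.11 beside -0.01 for all genes, and 48 of the 50 estimates were above 0. CCNB1 was at 286.0, 340.6 and 322.7 TPM under uracil and at 348.9, 356.8 and 342.7 TPM under 5-FU, CDK1 at 146.3, 132.5 and 129.1 TPM and then at 141.2, 144.8 and 140.5 TPM, and PLK1 at 95.3, 110.6 and 103.5 TPM and then at 100.9, 104.1 and 104.3 TPM. These were not called. The members summed to 3657 TPM in replicate 1 under uracil beside 4102 and 4006 TPM in the others.

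The difference between the resistant and the sensitive response to 5-FU was called for every member in HCT-116, where all 50 were higher in resistant cells (18.3% of all genes). The differences ran from 1.04 in CKAP2 to 2.64 ± 0.0840 in HMMR, and after HMMR and CDC25C (2.47 ± 0.178) were largest in KIF20A (2.36 ± 0.0750), CCNB2 (2.31 ± 0.0775), DLGAP5 (2.30 ± 0.0706) and NUF2 (2.25 ± 0.0829). In DLD-1 the response differed in 14 members (22.8% of all genes), a share close to that background, with 12 lower and 2 higher in resistant cells. PIF1 (-0.65 ± 0.127), CENPA (-0.55 ± 0.0696), NDC80 (-0.52 ± 0.0811) and CKAP2 (-0.46 ± 0.0934) were among the former, and HMMR (0.63 ± 0.0779) and PSRC1 (0.55 ± 0.0723) were the latter. This count was 7 without replicate 2, 4 without replicate 3 and 25 with library size scaling. Between labelled resistant HT-29 and sensitive HT-29 it was 33 members (35.4% of all genes), 11 lower and 22 higher, or 17 and 19 with library size scaling. HMMR (1.84 ± 0.0655), PIF1 (1.10 ± 0.101) and AURKA (1.05 ± 0.0612) were highest there, and line and resistance cannot be told apart in it.

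Irradiation added to 5-FU lowered the members further in sensitive HCT-116. At the adjusted p 48 fell and none rose, against 0.918% of all genes lower, and CKAP2 and CDC25C were the 2 not called. None changed by 2-fold in edgeR or DESeq2 (0.0% of all genes did), and all 50 had an unadjusted p under 0.05. The median was -0.59, beside -0.00447 for all genes. CCNB1 was at 55.5, 51.1 and 51.7 TPM with irradiation, against the 76.5 to 86.0 TPM of 5-FU alone (log2 -0.59 ± 0.0580). PLK1 was at 16.4, 18.6 and 18.6 TPM against 29.6 to 31.2 TPM (-0.81 ± 0.0605), and CDK1 at 48.7, 38.6 and 41.7 TPM against 54.9 to 57.8 TPM (-0.38 ± 0.0667). MKI67, the proliferation antigen Ki-67, was lowest, at 10.6, 12.7 and 12.2 TPM against 23.2, 22.2 and 22.2 TPM (-0.93 ± 0.0695). CENPE was at 1.85, 2.05 and 1.98 TPM against 4.70, 3.72 and 4.15 TPM (-0.87 ± 0.0726), and PIF1 at 3.34, 2.49 and 3.22 TPM against 5.67, 5.96 and 4.46 TPM (-0.86 ± 0.125). The kinesins KIF14 (2.51, 2.47 and 2.22 TPM against 4.31, 4.12 and 4.35 TPM) and KIF20A (6.71, 6.89 and 6.88 TPM against 11.8, 12.2 and 11.3 TPM) fell by 0.82 ± 0.0503 and 0.80 ± 0.0612. The groups did not overlap in any of these 8 genes, beside 7.8% of all genes wholly below and 6.7% wholly above. Of the other mitotic genes 23 of 28 fell, of condensin and cohesin 11 of 14, and of replication 21 of 30.

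The other sensitive lines changed little. In sensitive HT-29 no member was called by edgeR or DESeq2 at either rule and 3 had an unadjusted p under 0.05, beside 0.00842% of all genes at the adjusted p and the same 0.00842% at 2-fold. CCNB1 was at 206.7, 208.5 and 211.2 TPM with irradiation against 199.2 to 215.2 TPM without it (-0.01 ± 0.0422), and the estimates over the members ran from -0.13 in CENPE to 0.13 in SGO1. In sensitive DLD-1 CDK1 and TOP2A rose, 2 members beside 0.0367% of all genes higher. No member changed by 2-fold there in edgeR or DESeq2 (0.0% of all genes did), and 9 members had an unadjusted p under 0.05. CDK1 went from 153.0, 156.7 and 153.3 TPM to 210.1, 214.2 and 202.5 TPM (0.42 ± 0.0497, adjusted p = 0.00059), and TOP2A, the topoisomerase that untangles sister chromatids, from 200.7, 198.4 and 194.8 TPM to 247.8, 249.2 and 253.7 TPM (0.31 ± 0.0312, adjusted p = 5.62e-05). CCNB1 was at 388.9, 386.7 and 412.5 TPM with irradiation and PLK1 at 129.5, 126.7 and 130.4 TPM. Both calls, of CDK1 and TOP2A, were lost without replicate 2 and without replicate 3.

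Resistant cells lost part of these transcripts with irradiation, by less than 2-fold. The X-ray dose was set by line, so these groups need not have had the same dose. In labelled resistant HT-29, 43 members fell and 3 rose, against 6.94% and 7.48% of all genes, with a median of -0.28. No member changed by 2-fold in edgeR or DESeq2 (0.434% of all genes did), and 47 had an unadjusted p under 0.05. SPC25 fell most, from 72.0, 70.0 and 62.0 TPM to 38.5, 39.5 and 42.4 TPM (-0.75 ± 0.0575). MKI67 was at 85.6, 86.4 and 88.4 TPM and then at 49.0, 59.9 and 55.2 TPM (-0.63 ± 0.0618), DLGAP5 at 94.9, 95.4 and 89.7 TPM and then at 65.6, 62.6 and 61.4 TPM (-0.61 ± 0.0465), and KIF14 at 20.7, 19.9 and 21.5 TPM and then at 13.6, 14.6 and 14.1 TPM (-0.58 ± 0.0401). CENPA fell from 45.4, 47.8 and 51 TPM to 33.2, 33.9 and 34.1 TPM (-0.57 ± 0.0578), and PIF1 from 22.5, 24.6 and 25.0 TPM to 14.4, 18.4 and 15.7 TPM (-0.56 ± 0.0742). CCNB1 and PLK1 were also among the members that fell. The 3 that rose were UBE2C (0.27), HMMR (0.19) and CDK1, the last from 175.7, 176.5 and 184.2 TPM to 217.7, 213.1 and 209.5 TPM (0.23 ± 0.0513). The count of lower members was 27 without replicate 2. Of replication genes 23 of 30 fell, and of other mitotic genes 26 of 28.

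In resistant HCT-116, 26 members fell with irradiation and none rose, against 0.884% of all genes lower, and none changed by 2-fold in edgeR or DESeq2 (0.0261% of all genes did). The median was -0.22 and all 50 estimates were below 0, with 44 members at an unadjusted p under 0.05. CENPF, a large kinetochore protein, was at 88.1, 95.9 and 108.1 TPM and then at 68.7, 83.2 and 69.6 TPM (-0.42 ± 0.0606), and CENPE at 17.7, 18.1 and 18.8 TPM and then at 13.1, 14.7 and 14.5 TPM (-0.41 ± 0.0580). DLGAP5 was at 100.6, 97.3 and 97.4 TPM and then at 73.6, 72.4 and 73.7 TPM (-0.41 ± 0.0481), MKI67 at 103.4, 110.3 and 109.7 TPM and then at 77.2, 84.7 and 75.2 TPM (-0.39 ± 0.0673), KIF14 at 22.1, 22.8 and 21.1 TPM and then at 16.7, 17.4 and 16.9 TPM (-0.38 ± 0.0405), and SPC25 at 77.9, 68.6 and 69.8 TPM and then at 55.6, 63.6 and 62.5 TPM (-0.37 ± 0.0564). These 6 were the largest changes, and their groups did not overlap, beside 12.1% of all genes wholly below. CCNB1 fell by 0.26 ± 0.0542 and PLK1 by 0.24 ± 0.0545, whereas CDK1 was at 172.3, 174.3 and 183.2 TPM against 185.2, 181.1 and 176.2 TPM (-0.02 ± 0.0621). The number called was 4 without replicate 1 and 6 without replicate 2. The mitochondrial share was 4.98%, 5.13% and 4.98% under 5-FU and 5.15%, 5.55% and 5.59% with irradiation, and its part in the result was not tested.

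In resistant DLD-1, 10 members fell and 2 rose with irradiation, against 1.43% and 2.42% of all genes, and none changed by 2-fold in edgeR or DESeq2 (0.142% of all genes did), with 28 members at an unadjusted p under 0.05. KIF20A, a kinesin of the central spindle, was at 55.5, 55.1 and 54.8 TPM and then at 39.9, 41.0 and 40.0 TPM (-0.48 ± 0.0753). CENPF was at 77.0, 78.3 and 76.8 TPM and then at 52.4, 51.2 and 65.0 TPM (-0.38 ± 0.0517), CENPE fell from 14.9, 14.7 and 14.7 TPM to 12.3, 11.7 and 12.9 TPM (-0.36 ± 0.0628) and MKI67 from 59.6, 55.9 and 59.6 TPM to 44, 41.6 and 51.7 TPM (-0.33 ± 0.0647). CDK1 rose from 141.2, 144.8 and 140.5 TPM to 172.4, 189.8 and 173.4 TPM (0.35 ± 0.0501), and UBE2C from 200.5, 203.4 and 207.6 TPM to 253.1, 249.2 and 249.0 TPM (0.28 ± 0.0595). Only 2 members were called without replicate 2 and 1 without replicate 3. CDK1 rose with irradiation in sensitive DLD-1, resistant DLD-1 and labelled resistant HT-29.

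**Figure D3:**
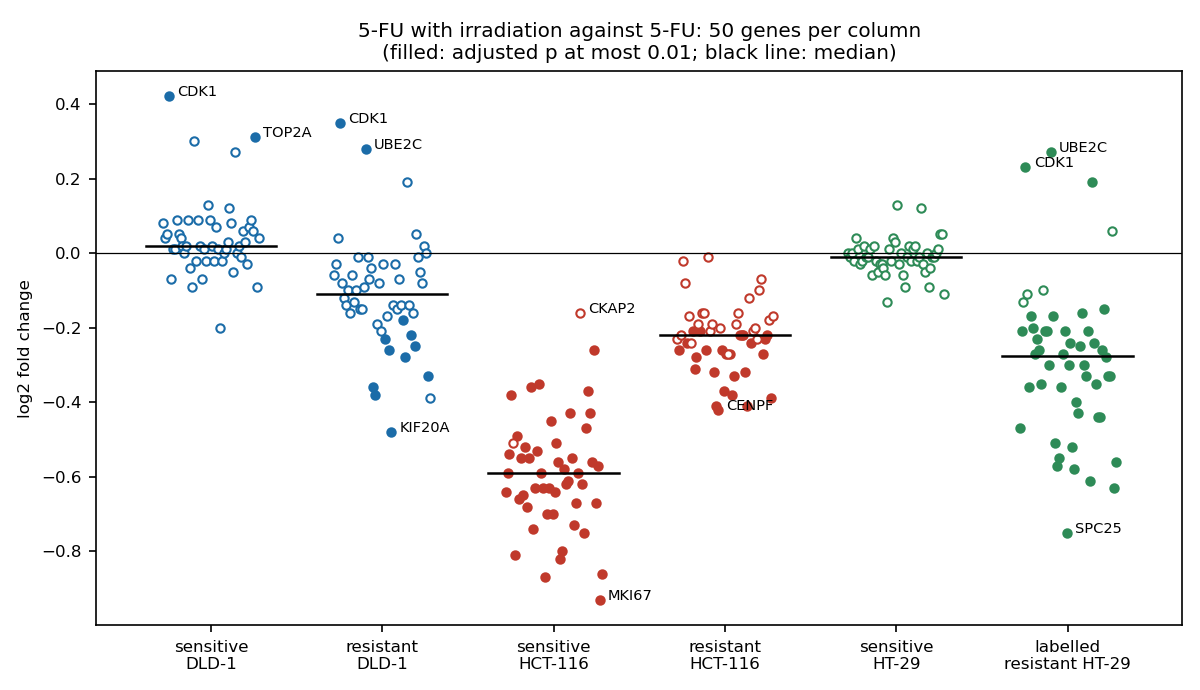
Log2 fold change of 5-FU with irradiation against 5-FU (y axis) for the 50 members in each line and state (x axis), filled where the adjusted p was at most 0.01, with a black line at the median. The medians are -0.59 in sensitive HCT-116, -0.28 in labelled resistant HT-29, -0.22 in resistant HCT-116, -0.11 in resistant DLD-1, -0.01 in sensitive HT-29 and 0.02 in sensitive DLD-1. X-ray doses differed between the lines.

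The response to irradiation differed between labelled resistant and sensitive HT-29 in 30 members (5.4% of all genes), 29 of them lower and 1 higher in the former, with SPC25 (-0.78 ± 0.0792), MKI67 (-0.68 ± 0.0869), DLGAP5 (-0.59 ± 0.0667), KIF14 (-0.53 ± 0.0574), KIF11 (-0.52 ± 0.0614) and CENPA (-0.51 ± 0.0811) furthest apart. Without replicate 1 it was 13 and without replicate 2 it was 11. In HCT-116 it differed in 12 members (0.165% of all genes), all with the smaller loss in resistant cells, led by CDCA8 (0.58 ± 0.0857), PLK1 (0.57 ± 0.0813) and GTSE1 (0.55 ± 0.0990). No member was called there when replicate 1, 2 or 3 was left out, 3 were called with DESeq2 size factors and 28 by DESeq2. In DLD-1 only TOP2A differed (-0.31 ± 0.0441, adjusted p = 0.00612, beside 0.0413% of all genes), and no member was called without replicate 1, 2 or 3.

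Under uracil, resistant HCT-116 held more of most of these transcripts than sensitive HCT-116 and far less of CDC25C. By the adjusted p 34 members were higher and 3 lower, against 16.4% and 24.7% of all genes. By the 2-fold rule only CDC25C was called (6.8% of all genes were lower). CDC25C was at 17.8, 17.5 and 16.5 TPM in sensitive cells and at 1.68, 2.19 and 2.88 TPM in resistant cells under uracil (8.25-fold lower, log2 -3.04 ± 0.120). It stayed there under 5-FU (2.17, 2.83 and 1.95 TPM) and with irradiation (1.57, 2.45 and 2.13 TPM), close to the 2.70 to 3.01 TPM of sensitive HCT-116 under 5-FU. The other lower members were SGO2, a protector of centromeric cohesion, at 29.2, 30.0 and 29.9 TPM against 18.6, 19.7 and 20.3 TPM (-0.64), and HMMR at 66.2, 70.0 and 70.0 TPM against 58.9, 59.8 and 65.4 TPM (-0.22). CCNB1 was higher by 0.35 ± 0.0543 and PLK1 by 0.26 ± 0.0546, PIF1 had the highest estimate (0.93), and CDK1 had 0.12 ± 0.0622 (adjusted p = 0.111). Under uracil the mitochondrial share was 5.24%, 5.45% and 5.04% in resistant and 2.99%, 4.0% and 3.06% in sensitive HCT-116, and its part in the result was not tested.

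CDC25C was lower still in labelled resistant HT-29. Its level there under uracil was 0.590, 0.302 and 0.508 TPM, against 14.7, 16.2 and 15.3 TPM in sensitive HT-29 (41.3-fold lower, log2 -5.37 ± 0.131). It was 37.9-fold lower than in sensitive HCT-116 (-5.25 ± 0.130) and 4.62-fold lower than in resistant HCT-116 (-2.21 ± 0.173), and the groups overlapped in none of these comparisons, where 31.0%, 19.7% and 11.2% of all genes lay wholly below. The levels rest on few reads there, from 13 counts upwards. Resistant DLD-1 held 21.1, 20.8 and 21.0 TPM against 24.0, 23.9 and 24.2 TPM in sensitive DLD-1. The transcript with the highest mean level over all libraries, CDC25C-201 (ENST00000323760, the MANE Select transcript) and took under uracil 57.9% of the gene in sensitive and 61.6% in resistant DLD-1, and 36.5% in sensitive and 19.1% in resistant HCT-116. For 43 of the 50 members the transcript with the highest mean level was the MANE Select one.

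The remaining members differed between labelled resistant and sensitive HT-29 under uracil in both directions, and the direction depended on the scaling. By the adjusted p 23 were lower and 16 higher, against 34.3% and 34.1% of all genes, whereas library size scaling gave 16 lower and 29 higher, turned the sign of ANLN, BUB1B, CCNA2, CENPE and KIF23, and moved the median of all genes tested from 0.00 to 0.26. By the 2-fold rule CDC25C, TOP2A and CCNB2 were lower (18% of all genes were). TOP2A was at 158.2, 153.6 and 162.4 TPM in sensitive HT-29 and at 96.9, 92.9 and 92.7 TPM in labelled resistant HT-29 (2.19-fold lower), and CCNB2 at 181.2, 186.2 and 175.6 TPM against 111.8, 112.2 and 106.6 TPM (2.15-fold lower). Set against sensitive HCT-116, whose markers they carry, the labelled resistant HT-29 libraries had 2 members lower at 2-fold, CDC25C and HMMR (4.6% of all genes were lower). HMMR was at 66.2, 70.0 and 70.0 TPM against 38.9, 39.0 and 38.7 TPM (log2 -1.0 ± 0.0565), and missed the 2-fold rule with library size scaling, in a fit of only the groups compared and without replicate 3. By the adjusted p 3 were lower and 22 higher there (17.8% and 12.4% of all genes), and 3 and 7 without replicate 2. Against resistant HCT-116 only CDC25C was lower at 2-fold (1.75% of all genes were) and 18 members were lower at the adjusted p (8.91% of all genes), 8 of them without replicate 2. The mitochondrial share under uracil was 4.49%, 4.36% and 4.7% in labelled resistant HT-29 and 3.06%, 2.84% and 4.27% in sensitive HT-29. It was 2.99%, 4.0% and 3.06% in sensitive and 5.24%, 5.45% and 5.04% in resistant HCT-116, and its part in these results was not tested.

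Resistant DLD-1 under uracil had 14 members lower than sensitive DLD-1 and none higher, against 11.5% of all genes lower, and none changed by 2-fold in edgeR or DESeq2 (5.7% of all genes did), with 25 members at an unadjusted p under 0.05. MKI67 was at 78.6, 84.5 and 81.6 TPM in sensitive cells and at 49.8, 57 and 56.3 TPM in resistant cells (-0.60 ± 0.0646). PSRC1 was at 40.7, 42.4 and 42.0 TPM against 30.9, 32.1 and 29.3 TPM (-0.43 ± 0.0507), and ASPM at 25.9, 25.8 and 25.2 TPM against 21.6, 20 and 19.1 TPM (-0.39 ± 0.0413). The groups did not overlap in these 3 genes, beside 19.9% of all genes wholly below. PIF1 (17.0, 19.1 and 16.8 TPM against 11, 14.3 and 13.6 TPM, log2 -0.34 ± 0.0907), CENPF (79.3, 84.0 and 86.1 TPM against 68.1, 83.7 and 82.4 TPM, -0.30 ± 0.0514) and NEK2 (52.5, 53.3 and 53.4 TPM against 43.8, 43.8 and 42.9 TPM, -0.29 ± 0.0478) followed. CCNB1 had 0.06 ± 0.0565 (adjusted p = 0.492) and PLK1 -0.13 ± 0.0554 (adjusted p = 0.0744). Replicate 1 of resistant DLD-1 stood apart, with members summing to 3657 TPM beside 4102 and 4006 TPM in the others and 4090 to 4174 TPM in sensitive DLD-1, and its counts differed from theirs by a chi-square of 24.5 and 21.1 per degree of freedom, beside 3.33 between the other two. Without replicate 1 the calls were 8 lower and 1 higher. The number called was 7 without replicate 3, and 6 in a fit of only the groups compared. The mitochondrial share was 2.03%, 2.4% and 2.25% in resistant DLD-1 under uracil, below the 2.91% to 3.47% of sensitive DLD-1, and its part in the result was not tested.

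**Figure D4:**
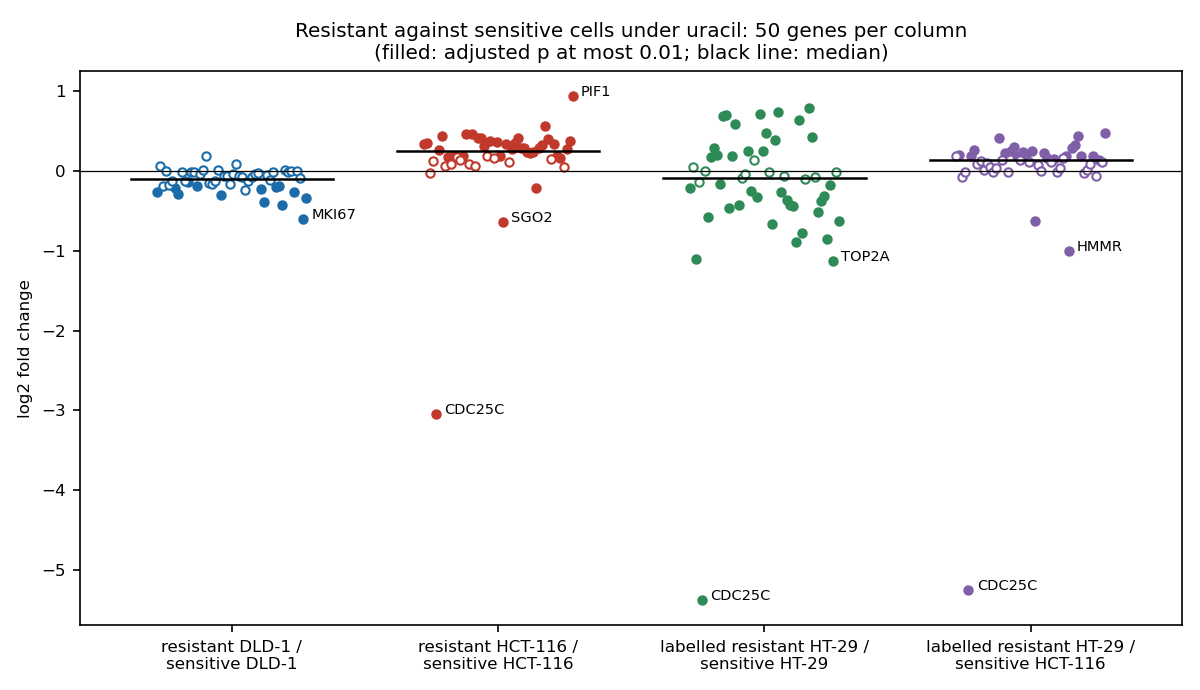
Log2 fold change under uracil (y axis) for the 50 members in resistant against sensitive cells (x axis), filled where the adjusted p was at most 0.01, with a black line at the median. CDC25C stands at -3.04 in resistant HCT-116 and at -5.37 and -5.25 in labelled resistant HT-29 against sensitive HT-29 and sensitive HCT-116, while the medians lie between -0.10 and 0.25.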

How the data were processed

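RNA of 3 colorectal cancer cell lines was sequenced as poly(A), directional, paired-end libraries. The authors trimmed reads with Trimmomatic 0.36, checked them with FastQC 0.11.8 and quantified transcripts with kallisto 0.44.0 on the Ensembl annotation of GRCh38.p13, and deposited gene values as sums over transcripts, as estimated counts and as TPM. Estimated counts need not be whole and were rounded here, and reads shared by similar genes were split by the model. Groups follow the labels, and the study's methods call the replicates biological triplicates.

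Rounded counts were tested with edgeR 4.0.16 in R 4.3.3 (TMM scaling, its filter on low counts, quasi-likelihood F test, Benjamini-Hochberg adjustment over all genes tested), with 1 fit of 18 libraries per line, or of all 54 where lines were compared. A gene was called at an adjusted p of at most 0.01, with at least 2-fold as the main count, and differences between responses at the adjusted p alone. TPM served to print levels and sums, which compare genes per length. DESeq2 1.42.0, other scalings, no filter, a replicate block, only the groups compared, thinning of the deepest library and leaving out each replicate number were alternatives. The test was checked on simulated counts: in the sensitive lines under 5-FU it recovered, of 100 genes changed 2-fold, 98 in DLD-1 and 95 each in HCT-116 and in HT-29.

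Library values are printed for the 3 largest and 3 smallest changes in each sensitive 5-FU comparison, and elsewhere for up to 6 called members, largest first. Those of CCNB1, CDK1 and PLK1 are all printed for 5-FU in the sensitive lines, and in other comparisons not always. In the differences between responses they stand with the comparisons that make up the difference, for some members as estimates only. Members, lists and tests were chosen with earlier results of these data known. Same-numbered replicates did not deviate together: in 0 of 17 comparisons did every pair pass a correlation of 0.1 (-0.0997 to 0.12), so the numbers were not taken as pairs. Promoters came from RefSeq tables, and tables and figures were made with Python 3.11.15, pandas 2.3.3 and matplotlib 3.10.9.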

Additional observations from a re-analysis of the deposited data

Results flagged for a closer look

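Each value here is a number of members, of 50, whose response differed between 2 groups when the difference itself was tested at an adjusted p of at most 0.01 with edgeR. The response to 5-FU differed in 50 members between sensitive HCT-116 and sensitive DLD-1 (13.3% of all genes in the same direction), in 50 between sensitive HCT-116 and sensitive HT-29 (19.9% likewise), and in 33 between sensitive HT-29 and sensitive DLD-1 (27.2% in either direction). Between resistant and sensitive cells it differed in 50 in HCT-116 (18.3% of all genes in that direction), in 14 in DLD-1 (22.8% in either direction) and in 33 in HT-29 as labelled (35.4%). The response to added irradiation differed between resistant and sensitive cells in 12 members in HCT-116 (0.165% of all genes in that direction), in 1 in DLD-1, TOP2A (0.0413% in either direction), and in 30 in HT-29 as labelled (5.4%). The 12 and the 1 became 0 when any replicate number was left out. In HT-29, line and resistance cannot be told apart, since the labelled resistant libraries carry the markers of HCT-116.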

How the results depend on the processing

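One count per comparison was recomputed in full, that at 2-fold or, for a difference between responses, at the adjusted p: 219 of these values stayed within 1.5 times the reported count and 24 did not. The 219 include every 0 recomputed where the reported count was 0. That count was 0 for added irradiation in every line and state, for 5-FU in resistant cells and in sensitive DLD-1, and for resistant against sensitive DLD-1 under uracil. The 219 thus say little of the counts at the adjusted p there. Among recomputed values of CCNB1, CDK1, PLK1 and the other members picked for printing, 1193 kept their direction and their side of the threshold and 89 kept only the direction. Of the other members, ANLN, BUB1B, CCNA2, CENPE and KIF23 changed sign with library size scaling in labelled resistant against sensitive HT-29 under uracil. The 50 of 50 members that fell in sensitive HCT-116 under 5-FU held under every alternative run. The 4 members called at 2-fold in sensitive HT-29 became 1 with library size scaling. The difference in 5-FU response between resistant and sensitive DLD-1, 14 members, became 25 with library size scaling and 4 to 21 when a replicate was left out. For the difference in the response to irradiation, in DLD-1 the 1 member became 9 with no filter, 3 in a fit of only the groups compared, 6 with DESeq2, 0 with the replicate block and 0 when any replicate was left out. In HCT-116 the 12 members became 21 with library size scaling, 3 with DESeq2 size factors, 34 with no filter, 1 in a fit of only the groups compared, 28 with DESeq2 and 0 when any replicate was left out. In HT-29 as labelled the 30 members became 11 to 24. The 2 members lower at 2-fold in labelled resistant HT-29 than in sensitive HCT-116 became 1 with library size scaling, 1 in a fit of only the groups compared and 1 to 2 when a replicate was left out. At the adjusted p alone, leaving out a replicate turned 26 called members into 4 and 6 for irradiation in resistant HCT-116 (14 in a fit of only the groups compared), 12 into 2 and 1 in resistant DLD-1 (17 lower and 3 higher in the same fit), 43 lower ones into 27 in labelled resistant HT-29 and 2 into 0 in sensitive DLD-1. Under uracil it turned 14 into 7 to 9 in resistant DLD-1 (6 in a fit of only the groups compared, 22 with no filter), and in labelled resistant HT-29 22 higher ones into 7 to 12 against sensitive HCT-116 (12 with DESeq2 size factors) and 18 into 8 to 10 against resistant HCT-116. The cause of these changes was not tested. The replicate block moved no other count by over 1.5 times, with 17 in place of 12 for irradiation in HCT-116. Depth limits CDC25C in labelled resistant HT-29, where counts started at 13.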
